A study of Mus musculus with 4 samples.

Results

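The probes described here target intergenic regions that the array names by their position in the mouse genome (chromosome, start, end and strand F or R) and not by a gene. They were chosen as the non-control probes whose systematic name starts with chr. There are 4450 of them among the 56605 non-control probes of the array, and they stand for 4062 names (a region and a strand) at 3230 regions, against 47837 named targets on the whole array. Such regions hold candidate long intergenic non-coding RNAs (lincRNAs). They were read on 4 one-colour arrays of RNA from GC-1, an established line of mouse spermatogonia. Cells of 1 group (2 arrays, empty vector 1 and 2) received an empty plasmid. Cells of the other group (2 arrays, Hdac6 vector 1 and 2) received a pCMV plasmid with murine Hdac6 under the CMV promoter and a myc/DDK tag, so that expression was driven by a viral promoter and not by the gene's own. All cells were harvested 48 h after transfection, and the medium had been changed in between in both groups. Nothing in the labels ties the arrays of a group to separate cultures, and p-values therefore cover the spread among these 4 samples alone, which may be technical.

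LincRNAs are transcribed by RNA polymerase II from loci between protein-coding genes, and many are spliced and polyadenylated like messenger RNAs. They are in general less abundant and more restricted to certain cell types than messenger RNAs, and the testis is known for transcribing many of them. Some act in the nucleus on chromatin or splicing, others act in the cytoplasm, and for most no function is known. Hdac6 is a mainly cytoplasmic deacetylase whose best known substrate is tubulin.

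Each target is read by a probe of 60 bases. The probes that carry the findings are shown here in sets, 5′ to 3′ as the array's files give them, with positions in mouse build mm9. The first holds the 4 brightest region probes, with the letters AATAAA, the most common polyadenylation signal, in capitals where a probe holds them.

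Probe at chrX:138967829-138967888, R strand: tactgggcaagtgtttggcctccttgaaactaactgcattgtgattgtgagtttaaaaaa
Probe at chr11:22686751-22686810, R strand: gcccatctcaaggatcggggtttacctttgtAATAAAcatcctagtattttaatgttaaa
Probe at chr17:17482318-17482377, R strand: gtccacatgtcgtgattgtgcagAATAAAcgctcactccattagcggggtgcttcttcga
Probe at chr17:48073450-48073509, F strand: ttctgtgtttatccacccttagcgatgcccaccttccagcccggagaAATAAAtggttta

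Next is the brightest probe of high G and C content, shown because base composition went along with detection (no letters are marked).

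Probe at chr14:78936616-78936675, F strand: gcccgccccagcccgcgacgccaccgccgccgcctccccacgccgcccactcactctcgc

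The next set shows 2 probes of different chromosomes that share a stretch of bases, in capitals, so that their signals may not be independent.

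Probe of chr11:22681800-22707775, R strand: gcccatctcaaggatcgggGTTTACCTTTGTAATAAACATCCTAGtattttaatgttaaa
Probe of chr2:167085700-167117795, R strand: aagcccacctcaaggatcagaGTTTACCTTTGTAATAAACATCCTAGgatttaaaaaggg

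The next sets are 2 pairs of probes that read the same bases of the genome on opposite strands, with the shared bases in capitals. Within a pair the capitals of one are the reverse complement of the capitals of the other.

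Probe at chr11:35810479-35810538, F strand: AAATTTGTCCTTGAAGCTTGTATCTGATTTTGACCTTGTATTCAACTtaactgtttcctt
Probe at chr11:35810466-35810525, R strand: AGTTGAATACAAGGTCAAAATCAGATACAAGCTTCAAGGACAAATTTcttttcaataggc

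Probe at chr5:139230315-139230374, F strand: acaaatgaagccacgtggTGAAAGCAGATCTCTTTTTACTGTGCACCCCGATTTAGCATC
Probe at chr5:139230333-139230392, R strand: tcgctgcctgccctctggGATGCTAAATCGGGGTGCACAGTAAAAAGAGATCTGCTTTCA

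The last set holds 2 probes with small unadjusted p in the comparison of the vectors. The first has no marked letters and the second holds AATAAA.

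Probe at chr1:63164066-63164125, F strand: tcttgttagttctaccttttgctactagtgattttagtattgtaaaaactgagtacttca
Probe at chr14:21462202-21462261, F strand: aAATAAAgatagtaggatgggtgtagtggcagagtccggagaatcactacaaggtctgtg

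The region probes lay on 20 chromosomes, with 2227 on strand F, 2222 on strand R and 1 without a strand in its name. The regions were 62 to 538251 bp long, with a median of 7204 bp. Most names (3746) had 1 probe, 262 had 2, 43 had 3 and 11 had more, up to 6. The files give a position for 4359 of the probes, and 4358 of these lay inside the named region on the named strand. The exception was the probe without a strand, named for chr6:52032838-52033444 but placed at chr6:52053285-52053344. Of the 4062 names, 3897 (95.9%) held no probe of an NM_ accession, the RefSeq class of protein-coding transcripts, on either strand. In 75 names an NM_ probe lay inside the region on the same strand, and in 99 on the opposite strand. These counts describe the regions as intergenic by the array's own probes, since no gene model of build mm9 was used here.

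Levels are log2 processed signal minus the array's 75th percentile over the non-control probes, so that 0 is the 75th percentile and each unit is a doubling. A probe counts as detected in a group when the scanner software flagged it well above background on both arrays. The signal of a probe also depends on its bases, so levels of different probes are given as descriptions. The array's 1 Hdac6 probe read 3.31 and 2.83 for the empty vector but 2.62 and 3.24 for the Hdac6 vector, and the groups overlapped. The sources used here do not say whether the plasmid holds the bases of that probe, so it gives no check of the labels, and the group names below are those of the labels. Empty vector 2 and Hdac6 vector 1 were the most alike arrays. Of the 2297 region probes detected on all 4 arrays, 0.871% differed by at least 2-fold between these 2. The other pairs of arrays gave 3.44% to 7.01%. Of 25 germ cell markers, 13 were detected in both groups (Uchl1, Etv5 and Pou5f1 among them), while Dazl, Kit and Sycp3 were not detected in either. Of the other testis cell lists, 8 of 11 Sertoli, 5 of 5 peritubular myoid and 2 of 7 Leydig cell markers were detected in both groups, and 7 of 8 macrophage and leukocyte markers. The Sertoli cell marker Wt1 was bright, at 7.09 and 6.75 for the empty vector and 6.58 and 7.02 for the Hdac6 vector. The defining germ cell gene Ddx4 was read at -5.69 and -5.77 on the empty vector arrays and fell below the flag's threshold on the Hdac6 vector arrays. The germ cell label of the line thus had only part of its marker list behind it on these arrays.

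More than 1 in 2 of the lincRNA region probes were detected in GC-1 cells, a lower share than over all non-control probes. With the empty vector 2576 of 4450 (57.9%) were detected on both arrays, and with the Hdac6 vector 2331 (52.4%). In both groups together 2297 (51.6%) were detected, and 1500 (33.7%) were detected on no array. The other probes fell between these, with 250 detected on 1 array, 159 on 2 and 244 on 3. Negative control spots were flagged well above background at 0% to 1.62% per array, which is the background of the same flag.

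Array by array, 62% and 60.3% of the region probes were well above background for the empty vector, against 59.1% and 54.3% for the Hdac6 vector. The means were 61.1% ± 1.16 (SD, n = 2) and 56.7% ± 3.35 (SD, n = 2). Both empty vector arrays lay above both Hdac6 vector arrays. An exact two-sided permutation test gave p = 0.333, the smallest value that 2 against 2 arrays allow. The NM_ probes moved the same way, from 73.9% ± 1.06 to 71.4% ± 1.63 (SD, n = 2 each; exact permutation p = 0.333). Hdac6 vector 2, the array with the fewest detected probes, also had the lowest 75th percentile of the processed signal, 453 against 666, 693 and 815 on empty vector 1, empty vector 2 and Hdac6 vector 1, and the part of signal strength in the lower share was not tested. Probes detected with the empty vector but not with the Hdac6 vector numbered 279, and of these 65 were well above background on neither Hdac6 vector array. The reverse held for 34 probes, of which 4 were on neither empty vector array. The whole array went the same way. Of all non-control probes, 34969 were detected with the empty vector, 32839 with the Hdac6 vector and 32594 in both groups (61.8%, 58.0% and 57.6%). For the region probes these shares were 57.9%, 52.4% and 51.6%.

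**Figure D1:**
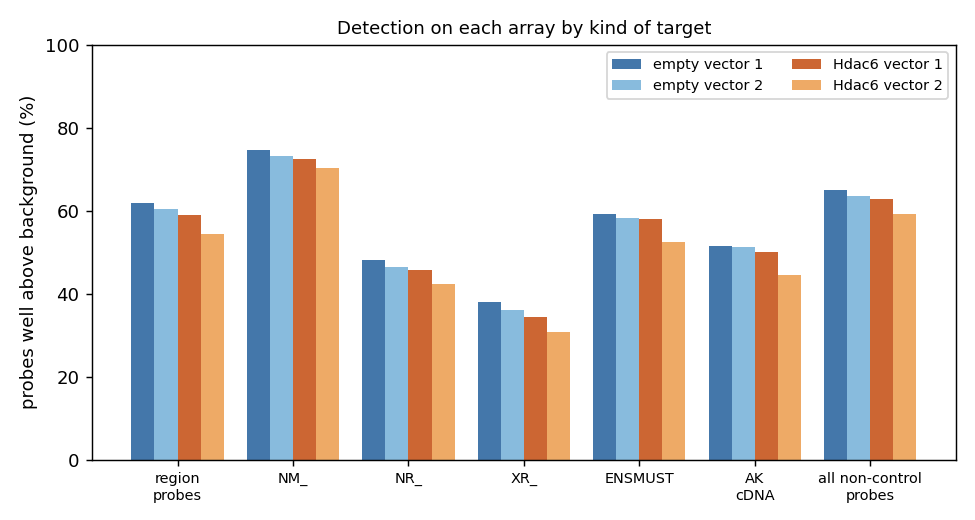
Share of probes well above background (vertical axis, percent of the probes of that kind) on each of the 4 arrays, for the region probes, 5 classes of accession and all non-control probes. The region probes (62% to 54.3%) lie below the NM_ probes (74.7% to 70.2%) and above the NR_ probes (48.2% to 42.4%), and Hdac6 vector 2 is the lowest array in every class shown.

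Among the kinds of target on the array, the lincRNA regions stood between coding transcripts and the RefSeq non-coding ones. Of the NM_ probes, 72.1% were detected under the empty vector and 69.2% under the Hdac6 vector. NR_ probes, the RefSeq class of non-coding transcripts, were detected at 44.5% and 40.8%, and XR_ probes, predicted non-coding transcripts, at 33.6% and 29.1%. Probes of cDNA clones with AK accessions reached 47.9% and 42.8%. Probes with ENSMUST accessions were close to the regions, at 55.8% and 51.0%. All non-control probes together lay above the regions, at 61.8% and 58.0%. The order of the NM_, NR_, XR_ and AK classes and the regions was the same on both groups of arrays and on each single array. It carries no test, since each class is a different set of probes.

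The detected region probes were dim. Their median level with the empty vector was -3.36, against 0.28 for detected NM_ probes, a difference of -3.64 on the log2 scale or 12.5-fold. The middle of the distribution ran from -4.53 (lower quartile) to -1.67 (upper quartile), and the highest level was 7.71. Only 344 of the detected region probes (13.4%) lay above 0, against 52.5% of the detected NM_ probes, and 12.2% lay above the NM_ median. The detected NR_ probes had a median of -2.70 and the XR_ probes one of -3.66. The size of the gap to coding transcripts depended on the background correction, and with normexp correction it was 6.86-fold.

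**Figure D2:**
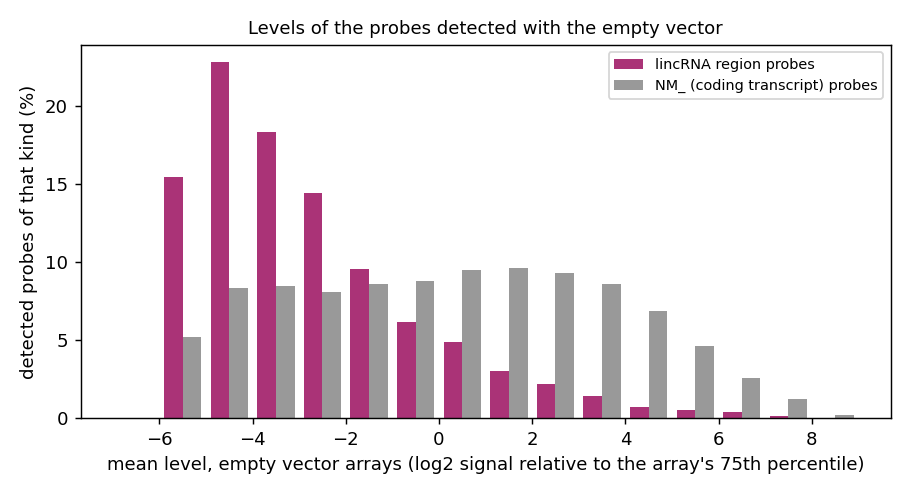
Distribution of the mean level of the 2 empty vector arrays (horizontal axis, log2 signal over the 75th percentile of the array, in bins of 1) for the detected lincRNA region probes and the detected NM_ probes, as a percent of each kind. Region probes are most frequent between -5 and -4 (22.8%) and thin out above 0, while NM_ probes spread broadly up to 8.

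Detection of a region probe went along with its base composition. Probes with under 35% G and C were detected in 25 of 101 cases (24.8%) with the empty vector. The share was 46.9% at 35 to 40%, 53.9% at 40 to 45%, 55% at 45 to 50%, 73.4% at 50 to 60% and 87.3% (193 of 221) at 60% and over. The NM_ probes ran from 61.9% to 85.5% over the same bins, so the distance between the kinds was widest at low and smallest at high G and C content. In the highest bin the region probes were detected as often as the coding ones, 87.3% against 85.5%. The same order held with the Hdac6 vector, from 24.8% to 84.2% for region probes. The part of base composition in the difference between the kinds was not tested.

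**Figure D3:**
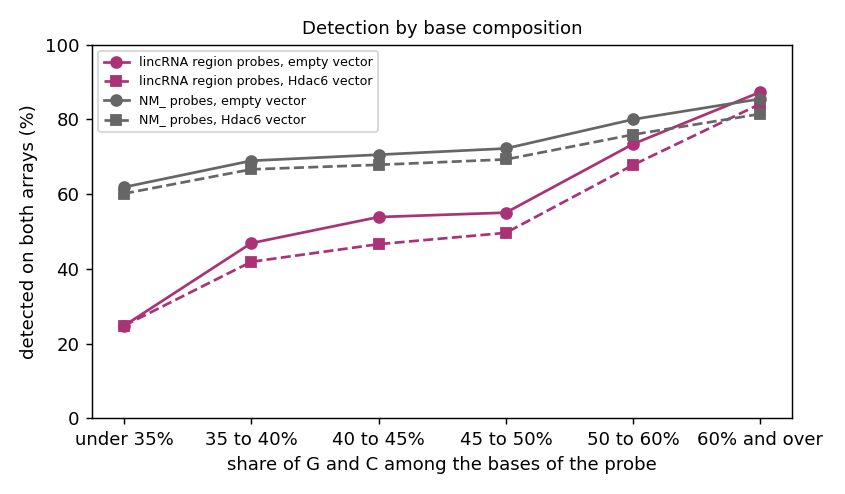
Share of probes detected on both arrays of a group (vertical axis, percent) by the share of G and C in the probe (horizontal axis, 6 bins), for region probes and NM_ probes in each group. Region probes run from 24.8% to 87.3% with the empty vector and meet the NM_ probes at the highest G and C content.

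The letters AATAAA were searched in each probe as printed, and TTTATT, their reverse complement, stood for the opposite strand. AATAAA was in 4.0% of the region probes and 10.6% of the NM_ probes, and in 9.77% of all non-control probes, all of 60 bases. TTTATT was in 2.76% and 3.83%. Among the detected region probes the share with AATAAA was 3.45% below a level of -4 and 11.4% (16 of 140) above a level of 2. The share with TTTATT was 2.13% and 2.86% in the same bins. NM_ probes had AATAAA in 7.63% below -4 and 18.2% above 2. Per the labels' protocols reverse transcription started from an oligo-dT primer. Of the 4 brightest probes printed above, 3 hold these letters, and none of the rest of the 10 brightest does.

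Detection did not change evenly with distance to a coding gene. On the same strand, region probes within 1 kb of an NM_ probe were detected in 22 of 29 cases (75.9%), at 1 to 5 kb in 66.3%, at 5 to 20 kb in 56.7%, at 20 to 100 kb in 61.9% and beyond 100 kb in 53.5%. On the opposite strand the closest probes were detected in 29 of 65 cases (44.6%), those at 1 to 5 kb in 50.5%, at 5 to 20 kb in 59.5%, at 20 to 100 kb in 60.2% and beyond 100 kb in 56.9%. Regions shorter than 1 kb were detected in 48.4% of cases, and longer ones in 58.0% to 61%. By chromosome the share ran from 46.0% on chromosome X to 67.5% on chromosome 17, with 48.7% to 65.9% on the rest.

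Very few region probes reached the level of abundant messenger RNAs. Of the probes, 137 had a mean level over the 4 arrays above 2, and 50 above 4. The brightest, chrX:138967807-138968413 on strand R, read 7.82 and 7.59 for the empty vector and 7.35 and 8.19 for the Hdac6 vector. The probe of chr11:22681800-22707775 on strand R read 7.75 and 7.51, and 7.49 and 7.80. The probe of chr17:17481706-17482457 on strand R read 7.41 and 7.33, and 7.19 and 7.86. In all 3 the groups overlapped, and the highest array was Hdac6 vector 2. The nearest NM_ probe on the same strand lay 212556 bp (Acsl4), 48405 bp (B3gnt2) and 184399 bp (Lnpep) away. The fourth, chr17:48068261-48087905 on strand F, read 7.44 and 7.37 for the empty vector and 7.18 and 7.56 for the Hdac6 vector, again overlapping. The chr11 probe shares 26 bases with the probe of chr2:167085700-167117795 on strand R, as printed above, and that probe was bright too, at 6.35 and 6.13 and then 6.18 and 6.55. The other 6 of the 10 brightest probes came from 3 names. These were chr14:78924115-78938125 on strand F (mean 6.92, with 83.3% G and C), chr14:77006215-77063293 on strand R (means 6.86 and 6.75 for 2 probes) and chr6:116123643-116124550 on strand F (means 6.71 to 6.74 for 3 probes). Bases were compared with those of the NM_ probes and not with whole transcripts. A bright probe that matches a coding RNA elsewhere in its sequence would thus be missed. Limma called none of the 10 between the groups, and their fold changes were 0.975 to 1.15 (adjusted p = 1.00 for each).

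A few bright signals had a known abundant RNA close by or in common. Across the array 18 region probes share at least 20 bases with an NM_ probe on the same strand, 17 of them were detected with the empty vector, and those 17 had a median level of 1.30 against -3.38 for the detected probes that share none. The brightest of them, chr7:108209996-108216032 on strand R, shares 28 bases with the probe of Rps29, a protein of the small ribosomal subunit, and read 6.29 and 6.12 for the empty vector and 6.13 and 6.59 for the Hdac6 vector. A probe of chr5:96591892-96606467 on strand F shares 26 bases with that of Ifitm3, an interferon-induced membrane protein, and read 4.21 and 4.56, then 4.73 and 4.49. In both cases the groups overlapped. On chromosome 17, 5 region probes between 39980297 and 39985629 bp read 3.48 to 5.43 on all arrays, beside the probe of Rn18s, the 18S ribosomal RNA, in the same stretch. Of the 5, 2 are on strand F, the strand of the Rn18s probe, and 3 are on strand R, opposite to it. These 5 were chosen for their place after their values were seen. Rn18s itself read 3.41 and 6.89 for the empty vector and 7.31 and 4.32 for the Hdac6 vector, a wider spread within each group than any of the 5 region probes showed.

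Where a name had more than 1 probe, the probes of 1 name often disagreed. Of 316 such names, 128 had all probes detected with the empty vector, 130 had some and 58 had none. Among the 147 names with at least 2 detected probes, their levels spanned a median of 1.70, and more than 2 in 67 names. The 3 probes of chr6:116123643-116124550 on strand F agreed closely, with empty vector means of 6.63, 6.60 and 6.68. The 3 probes of chr1:175654606-175672031 on strand R, a region 22542 bp from the interferon-inducible gene Ifi204 on the same strand, also agreed, at 3.81, 3.79 and 3.58. The 3 probes of chr6:11996975-12037300 on strand F, which start at 11997839, 11997899 and 12031087 bp, gave 2.79, 2.29 and 3.83. The 4 probes of chr17:29374758-29387733 on strand F, by contrast, ran from -5.39 to -0.89. The 3 of chr17:95255725-95272425 on strand R had means over the 4 arrays of 0.04, 0.64 and 2.87. Whether the probes of these names match coding RNAs outside the bases of the NM_ probes was not tested. In the comparison of the vectors the probes of a name spanned a median of 0.21 in log2 fold change, and 95 of 152 names (62.5%) had all their tested probes on the same side of 0.

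For 832 regions the array reads both strands, and a call can be made for each. A strand counts as detected if any of its probes is, and its level is that of its brightest probe. With the empty vector 367 regions (44.1%) were detected on both strands, 357 (42.9%) on 1 strand and 108 (13%) on neither. Of the regions with 1 detected strand, 156 had F and 201 had R. With the Hdac6 vector the counts were 311 (37.4%), 376 (45.2%) and 145 (17.4%). The call was the same in both groups for 720 regions (86.5%), and in 0 regions did the single detected strand switch.

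Detection on 1 strand of a region told little of the other. R was detected in 70.2% of the regions where F was, and in 65.0% of those where F was not. In the regions with both strands detected, the levels of the strands differed by a median of 2.13 on the log2 scale, 84 of the 367 were within 2-fold and 84 differed by more than 16-fold. The median level was -1.54 for the brighter strand and -4.17 for the dimmer one. Where 1 strand was detected and an NM_ probe lay within 5 kb, that strand was the gene's in 58 of 92 regions (63.0%). At 5 to 50 kb it was in 74 of 153 (48.4%), and beyond 50 kb in 61 of 112 (54.5%).

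**Figure D4:**
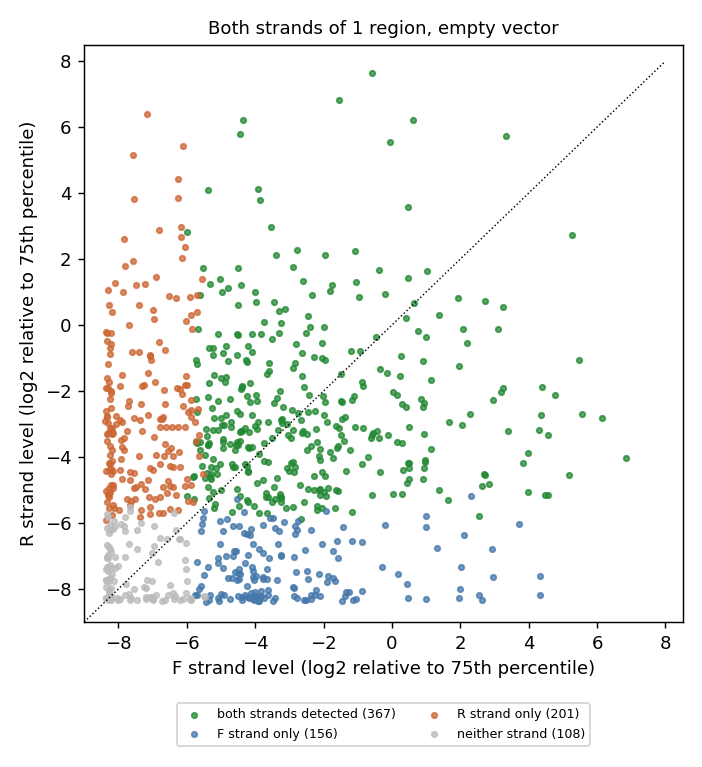
Level of the F strand (horizontal axis) against the R strand (vertical axis) of the 832 regions read on both strands, mean of the 2 empty vector arrays in log2 signal over the 75th percentile of the array, coloured by which strands were detected. Points spread over the whole plane with no band along the dotted line of equal levels, and 357 regions lie in the arms where only 1 strand was detected.

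In 6 regions the dimmer of the strands was brighter than in any other region, and their probes varied in base composition. In chr12:73838608-73862621 the R probe read 5.69 and 5.78 for the empty vector and 5.83 and 5.89 for the Hdac6 vector. The brighter of its F probes read 3.11 and 3.56 and then 3.74 and 3.52. These 2 probes hold 78.3% and 80.0% G and C. In chr6:83368261-83407280 the F probe (78.3% G and C) read 5.22 and 5.35, then 5.28 and 5.43, and the R probe (45% G and C) 2.78 and 2.66, then 2.43 and 2.63. Over all probes of the 6 regions named here the fold changes between the vectors were 0.88 to 1.47, and limma called none (adjusted p = 1.00 for each). In chr5:34696192-34722842 the brighter F probe, 17115 bp downstream of the probe of the ubiquitin ligase gene Rnf4, averaged 2.71 with the empty vector and the R probe 0.74, with 75% and 76.7% G and C. In chr17:35080914-35090009, between the heat shock gene Hspa1b and the sialidase gene Neu1, the strands averaged 1.01 (F) and 1.65 (R), with 46.7% and 60% G and C. In chr4:119967625-119978325 they were nearly equal, at 0.65 (F) and 0.68 (R), with 55% and 61.7% G and C. The sixth, chr7:108209996-108216032, is the region whose R probe shares bases with that of Rps29, and its F strand averaged 0.61, with 51.7% G and C in the F probe and 50% in the R probe.

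A closer look at strand is given by 192 pairs of probes that read at least 20 of the same bases on opposite strands, with a median overlap of 46 bases. With the empty vector both probes were detected in 62 pairs (32.3%), 1 in 87 (45.3%) and neither in 43 (22.4%). The levels of the 2 probes had a Pearson correlation of 0.12 over these pairs, which share arrays and base composition, and 57 pairs differed by more than 16-fold. The printed pair of chr11:35805295-35817263 was the clearest by its levels. Its F probe read 3.98 and 4.69 for the empty vector and 5.08 and 4.01 for the Hdac6 vector, while its R probe was at -8.32 to -7.49 and well above background on no array. In the printed pair on chromosome 5 the order was the reverse, and the R probe of chr5:139230332-139230823 read 3.66 and 3.70, then 3.66 and 4.28, against a dim F probe of the overlapping region chr5:139225387-139230837. The probes at chr10:97196521-97207471 gave 2.25 and 1.64, then 1.31 and 1.87, on strand F, and were not well above background on strand R. That F probe shares 23 bases with the NM_ probe of Saraf on the same strand, and the part of that RNA in its signal was not tested. In these examples, which were chosen for the size of the difference, the same strand was read on every array.

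Signal on both strands went along with base composition here as well. Among pairs with under 45% G and C, both probes were detected in 11 of 81 (13.6%), and 1 in 36. At 45 to 55% both were detected in 28 of 77 (36.4%), and at 55% and over in 23 of 34 (67.6%), with no pair lacking both. The part of base composition in detection on both strands was not tested.

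The question of the study's design is what the Hdac6 vector does to expression, and it was put to the 2609 region probes detected in at least 1 group. None of them passed the test. The limma fit over all 35206 tested probes called 0 region probes at an adjusted p under 0.05, and 4 probes on the whole array, a background of 0.0114%. The smallest adjusted p of a region probe was 1.00 (limma), from an unadjusted p of 0.000484. At an unadjusted p under 0.05 there were 47 region probes (1.80%), 30 higher and 17 lower with the Hdac6 vector, against a background of 1.83%. Over all tested probes the split at this threshold went the other way, with 284 higher and 361 lower. At least 2-fold differences were found in 35 region probes (1.34%), 23 higher and 12 lower, against 1.26% of all tested probes, 189 higher and 256 lower. The median standard error of a region probe's log2 fold change was 0.34.

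There was a small shift of the region probes as a whole. Of the 2609, 1650 (63.2%) were higher with the Hdac6 vector, against 53.2% of all tested probes and 50.4% of NM_ probes. The median log2 fold change was 0.10, against 0.02 over all tested probes and 0.00 over NM_ probes. The non-coding classes came closer, with 58.5% higher and a median of 0.06 for NR_ probes, and 60.3% and 0.09 for XR_ probes. At mean levels of -4 to -2, 68.8% of region probes, 59.5% of NM_ probes and 60.9% of all tested probes were higher. The part of level in the shift was not tested. The groups did not overlap in 698 region probes (26.8%), 439 higher and 259 lower, against 25% of all tested probes. The shift depended on which arrays were kept. The median level of the tested region probes was -3.48 and -3.31 for the empty vector and -3.37 and -3.16 for the Hdac6 vector, so that Hdac6 vector 1 lay between the empty vector arrays and only Hdac6 vector 2 lay above them. Without Hdac6 vector 2 the median log2 fold change was -0.02 and 47.1% were higher, with all tested probes at -0.05 and 44.5%. Without empty vector 1 it was 0.04 and 55.1%, with all tested probes at 0.02 and 53.0%. Without empty vector 2 it was 0.13 and 63.3%, with all tested probes at 0.01 and 51.2%. Without Hdac6 vector 1 it was 0.20 and 68.9%, with all tested probes at 0.08 and 58.5%. Scaling each array to its median gave a median of 0.00 and 50.6% higher, with all tested probes at -0.07 and 38.8%, and scaling by spike-in spots gave 0.20 and 75.1%, with all tested probes at 0.13 and 68.9%. With quantile normalization 54.9% were higher, and with normexp correction 80.2%. In each of these the median of the region probes lay above that of all tested probes.

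**Figure D5:**
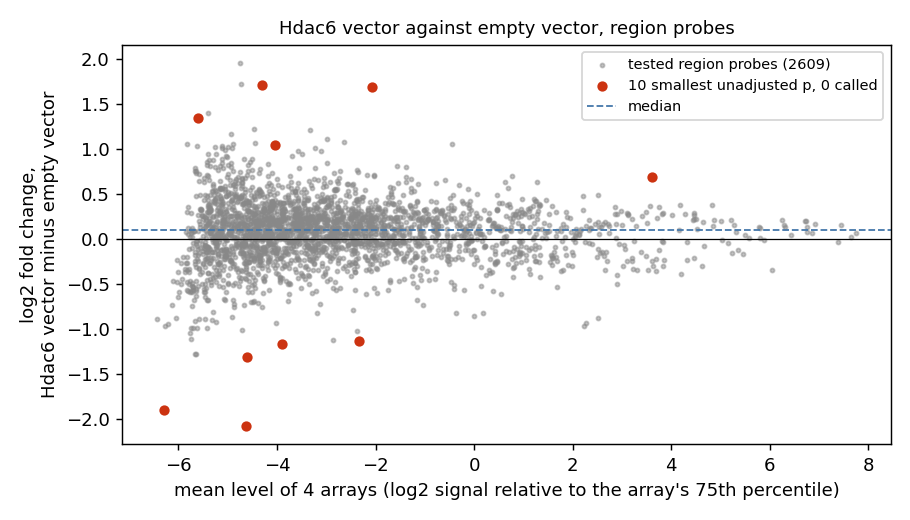
Log2 fold change of the 2609 tested region probes, Hdac6 vector minus empty vector (vertical axis), against their mean level over the 4 arrays (horizontal axis, log2 signal relative to the 75th percentile), with the 10 probes of smallest unadjusted p in red and the median of 0.10 as a dashed line. The spread widens towards dim probes, and 0 probes passed an adjusted p of 0.05.

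Of the 10 region probes with the smallest unadjusted p, 9 are given, as values only, since none passed the adjustment. Most of them were dim. The probe of chr17:6817346-6819981 on strand F, 4899 bp downstream of the probe of Dynlt1c, a dynein light chain gene, read -3.20 and -3.96 with the empty vector. It read -5.90 and -5.42 with the Hdac6 vector, where neither array was well above background. On this scale it was thus at least 3.99-fold lower there, taking the lowest signal among detected probes as the bound (limma adjusted p = 1.00). The probe of chr4:40840725-40860875 on strand F read -5.14 and -5.52 for the empty vector and -7.08 and -7.39 for the Hdac6 vector. Neither of the latter was well above background, which makes it at least 1.18-fold lower (limma adjusted p = 1.00). In both the groups did not overlap. The sizes for dim probes depended on the background correction. With normexp correction the log2 fold change was -0.50 instead of -2.08 for the chr17 probe and -0.10 instead of -1.90 for the chr4 probe, below the bounds just given.

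The probes with higher values were also separated between the groups. The printed probe of chr1:63163019-63164281 on strand F read -5.42 and -4.91 for the empty vector and -3.50 and -3.41 for the Hdac6 vector, 3.28-fold higher with a 95% interval of 1.90 to 5.67 before adjustment (limma adjusted p = 1.00). With normexp correction its log2 fold change was 0.63 instead of 1.71. The printed probe of chr14:21461716-21462270 on strand F read -3.55 and -2.28, then -1.43 and -1.02, which is 3.22-fold. The probe of chr4:97106832-97107437 on strand F was not well above background with the empty vector and was at least 2.34-fold higher, while its log2 fold change was 0.40 with normexp correction and 1.34 without. Next came chr9:50961285-50962539 on strand R at 2.07-fold. The only bright one of the 10 was chr5:35975265-35982561 on strand F, at 3.20 and 3.33 for the empty vector and 4.06 and 3.84 for the Hdac6 vector, or 1.61-fold. Lower values were seen for chr1:194659312-194661407 on strand R, at a fold of 0.446, and chr15:86038874-86039233 on strand R, at 0.403. The second was flagged above background with the Hdac6 vector on 1 array.

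The calls depended on which empty vector array was kept. With empty vector 2 left out, the empty vector group is 1 array, assumed to vary like the Hdac6 vector arrays, and the spread comes from these 2 alone. In that fit calls appeared among the region probes and rose over the whole array alike. Their number is not given, since 1 group then holds 1 array. The median log2 fold change was 0.13 for the region probes and 0.01 over all tested probes. The region probes called so had the same sign with all 4 arrays, but most were not under an unadjusted limma p of 0.05 there. On strand R of chromosome 8, overlapping regions gave the same picture. The probe of chr8:124355710-124401160 read -4.85 on empty vector 1 against -1.50 on empty vector 2 and -2.07 and -2.11 on the Hdac6 vector arrays, and that of chr8:124397412-124398022 read -4.91 against -2.55, and -3.04 and -2.39. On strand R of chromosome 13, the probes of chr13:104591796-104592249 and chr13:104591573-104599048 read -5.21 and -4.30 on empty vector 1, and between -2.97 and -2.20 on the other 3 arrays. In these 4 probes, chosen after their values were seen because they come in overlapping pairs, empty vector 1 stood apart and empty vector 2 read like the Hdac6 vector arrays.

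Named long non-coding RNAs gave a comparison from genes with their own annotation. Of a list of 73 such genes, 59 were on the array and 43 were detected in both groups. Gas5, a host gene of small nucleolar RNAs, read 6.38 and 6.30 for the empty vector and 6.33 and 6.26 for the Hdac6 vector. Norad, which binds Pumilio proteins, read 6.57 and 6.34, then 6.18 and 6.48. Neat1, the scaffold of paraspeckles, read 1.92 and 2.11, then 2.17 and 2.94. In Gas5 and Norad the groups overlapped, and in Neat1 they did not on this scale. Such separation was seen in 25% of all tested probes. Limma did not call Neat1, whose log2 fold change was 0.54 with a 95% interval of -0.12 to 1.20 before adjustment. Rian and Rmst, an imprinted and a neuronal non-coding RNA, were not detected in either group. Each gene of the list was read from its brightest probe. Of the 47 tested genes of the list, 0 were called by limma and 19 were higher with the Hdac6 vector. Their median log2 fold change was -0.13, against 0.10 for the region probes and 0.02 over all tested probes. Many of these genes were brighter than most region probes. Over all tested probes the median was 0.07 at mean levels of -4 to -2 and -0.015 above 2. The part of level in the difference was not tested.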

How the data were processed

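Total RNA of 4 samples was read on Agilent mouse arrays, 1 per sample. Per the file headers, the deposited scanner files hold spot intensity values from Agilent Feature Extraction 11.5.1.1 (the tool is also named in the submitters' processing notes), and the processed intensity is background-subtracted but not scaled between arrays. Detection is the software's flag, deposited by the authors beside each intensity. Probe positions are in build mm9, per the file headers. The authors' deposited value table holds log2 values, with the steps behind them not given in the sources used here. For over 99.9% of the names with 1 probe the column minus the log2 of the processed signal was constant within an array (tolerance 0.01), so its scale is log2 with an offset per array. Its column medians were -3.78, -3.67, -3.71 and -3.68. It served as an alternative.

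Repeated spots of a probe were averaged as log2 processed intensity, without outlier spots, and scaled by subtracting the 75th percentile of the array. Probes detected on both arrays of at least 1 group were compared by limma (version 3.58.1, R 4.3.3), with lmFit and a trended eBayes (two-sided, Benjamini-Hochberg over all tested probes). All arrays were on 1 slide with 1 scan day. The fit functions were tested on simulated data. For a probe below background in a whole group, the fold is a bound against the lowest signal among detected probes. Of the region probes, 2 were left out for outlier spots. RefSeq names from GRCm38.p6 were used for NM_ probes (29339 of 29638 matched), without coordinates.

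The members, lists and rules were chosen with earlier results of these data known. Named are called probes, the 10 of smallest p (1 is not reported here), the 10 brightest, the 6 strand pairs with the brightest dimmer strand, and the 6 names with most probes detected on all arrays. Alternatives were other background corrections, scalings, filters, detection rules and left-out arrays. With 4 arrays in all, their number limits the precision.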

Additional observations from a re-analysis of the deposited data

Results flagged for a closer look

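In the authors' deposited value table, 3 region names stood higher with the Hdac6 vector without overlap, although no probe of theirs in the scanner files differed by as much. They were noted because this table was not used for the main comparison. The row of chr17:86092322-86093123 on strand F was higher by 1.5 on the log2 scale in the authors' deposited table, and its 2 probes differed by 0.04 and 0.24. The row of chr6:47687025-47728525 on strand F was higher by 1.55 in the authors' deposited table, against 0.32 and -0.42 for its probes. The row of chr3:27837825-27880925 on strand F was higher by 1.44 in the authors' deposited table, against -0.10, 0.22 and 0.25. In each name at least 1 probe was not well above background on the Hdac6 vector arrays. In all, 9 region names of that table differed by more than 1 beyond the range of their probes. Of the other 6, 3 overlapped between the groups, and 3 were lower with the Hdac6 vector without overlap. In the authors' deposited table these 3 were chr13:65716675-65765575 on strand F at -1.66 (its probes 0.04 and 1.04), chr18:75518299-75524782 on strand R at -1.92 (-0.24 and 0.26) and chr17:22420025-22457650 on strand R at -1.22 (0.07 and 0.13). How the table combines the probes of a name was not tested.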

How the results depend on the processing

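The count of 0 region probes held under median, quantile and spike-in scaling, the 75th percentile of detected probes, both filters, no trend, 1 test per region name and the value table. It was 1 with normexp correction (chr14:21461716-21462270) and 0 to 28 with 1 array left out. Whether the replicate numbers of the labels pair the arrays is not known. Same-numbered arrays deviated with a correlation of -0.36 over all tested probes, and crossed ones with 0.36. With 2 arrays per group the 2 values mirror each other, so they cannot decide on pairing. With the replicate block 1 region probe was called (chr17:6817346-6819981, lower) and 22 on the whole array. With the crossed block, added after seeing the data, 0 and 15 were called. The whole-array count of 4 was 29 with normexp correction, 2 with quantile normalization, 2 with no trend, 0 with median scaling, 0 with the 75th percentile of detected probes and 0 to 302 with 1 array left out.

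Shares moved with the detection rule. The empty vector share was 64.4% for at least 1 array, 77.6% for the positive and significant flag, 68.2% above the 99th percentile of the negative controls and 60.3% to 62% on single arrays. The Hdac6 vector share was 61%, 73.9% and 51.9% under the same rules, and 54.3% to 59.1% on single arrays. Strand pairs detected on both strands were 52.2%, 67.3% and 56.1%, and 46.0% to 50.2% on single arrays. Pairs with 1 strand were 38.3%, 28.6% and 36.2%, and 39.1% to 42.3% on single arrays. The level difference to NM_ probes was -2.78 with normexp correction and -3.14 over all probes, and -3.73 to -3.58 on single arrays. The median log2 fold change was -0.02 to 0.20 with 1 array left out. Without the 411 region probes of doubtful target (no position, shared bases or an NM_ probe in the region; added after seeing the data) the shares were 57.7% and 52.0%. The 10 probes of smallest p kept their direction in all 136 alternatives run for them, though not their size. They were chosen from these same arrays, and their groups did not overlap. Leaving out 1 array therefore could not reverse them, and the kept direction is no separate support. For the 1500 probes well above background on no array, the signal gives only an upper bound.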
